A study of Caenorhabditis elegans with 2 samples.

Results

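Vesicle traffic genes of Caenorhabditis elegans were examined for promoter binding by NHR-47, a nuclear hormone receptor, in whole L1 larvae. The set held every protein-coding gene whose symbol starts with rab, arf, arl, sec, vps or snx followed by a number, which gave 86 of 19973 protein-coding genes. A gene was counted as having a promoter peak when a summit of the authors' thresholded list lay between 500 bp upstream and 200 bp downstream of its annotated 5′ end. The assay was ChIP-seq, in which DNA fragments bound by a chosen protein are pulled down with an antibody and sequenced. By symbol alone the set also takes in a few genes with other main roles, such as arl-13, known from cilia.

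All worms were hermaphrodites of strain OP481, genotype unc-119(tm4063) III; wgIs481, taken 6 h after synchronization, at which point larvae hatched from bleached eggs had been starved. The transgene wgIs481 supplies NHR-47 fused at its C terminus to GFP and FLAG, and the precipitation was against GFP according to the sample descriptions, although another label field names NHR-47 as the antibody. A control experiment named in the labels was not analysed here. There was 1 group with 2 biological replicates and no second condition, so values were compared between replicates and between genes. Whole animals were used, so a signal cannot be assigned to a tissue, and the bound protein was the transgenic one.

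Membrane traffic moves proteins and lipids between organelles in vesicles. Small GTPases of the Rab, Arf and Arl families mark membranes and recruit the machinery. The Sec proteins carry cargo into the endoplasmic reticulum (ER), out of it in COPII-coated vesicles and finally to the plasma membrane through the exocyst. The Vps proteins and sorting nexins (Snx) work largely on endosomes, where retromer recycles cargo, ESCRT complexes form inward vesicles, and the HOPS and CORVET complexes tether membranes before fusion. In the larval intestine, epidermis and neurons these pathways serve nutrient uptake, cuticle secretion and synaptic release.

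Promoter peaks were found at 30 of the 86 genes (34.9%), against 12.8% of all protein-coding genes. A further 16 genes (18.6%) held only a weaker pooled region, one that did not enter the thresholded list, against 15.5% of all genes. No pooled region lay in the windows of the other 40. The replicate lists, which hold background as well as peaks, both had a region in the window of 41 genes (47.7%), against 22.4% of all genes. The regions of the 2 lists were not required to overlap. These shares are a description with no test, since members were chosen with earlier results of these data known. Peaks were unevenly spread over the symbol families. They lay at 9 of 19 sec genes, 12 of 31 vps genes, 2 of 3 arf genes, 2 of 7 snx genes, 4 of 20 rab genes and 1 of 6 arl genes. The share was thus 47.4% among sec and 20% among rab genes, beside the 12.8% of all genes. The rab share moved with the settings. It was 40% (8 genes) in windows from 1000 bp before to 500 bp after the 5′ end, against 16.4% of all genes, and 10% (2 genes) in windows of 300 and 100 bp, against 9.77%. Without replicate 1 it was also 10%, below the 12.9% of all genes. The sec count fell to 4 genes (21.1%) in the windows of 300 and 100 bp, and to 5 (26.3%, against 10.2% of all genes) when a summit counted for its closest gene start alone. Without replicate 2 the arf count was 1, and without replicate 1 the arl count was 0. The 3 subunits of the ER translocon all had a peak, although sec-61.G alone kept one in the windows of 300 and 100 bp. Peaks lay at 3 of 6 exocyst, 6 of 11 ESCRT, 3 of 8 HOPS and CORVET and 1 of 3 retromer genes. When a summit counted for its closest gene start alone, the exocyst count was 1.

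**Figure D1:**
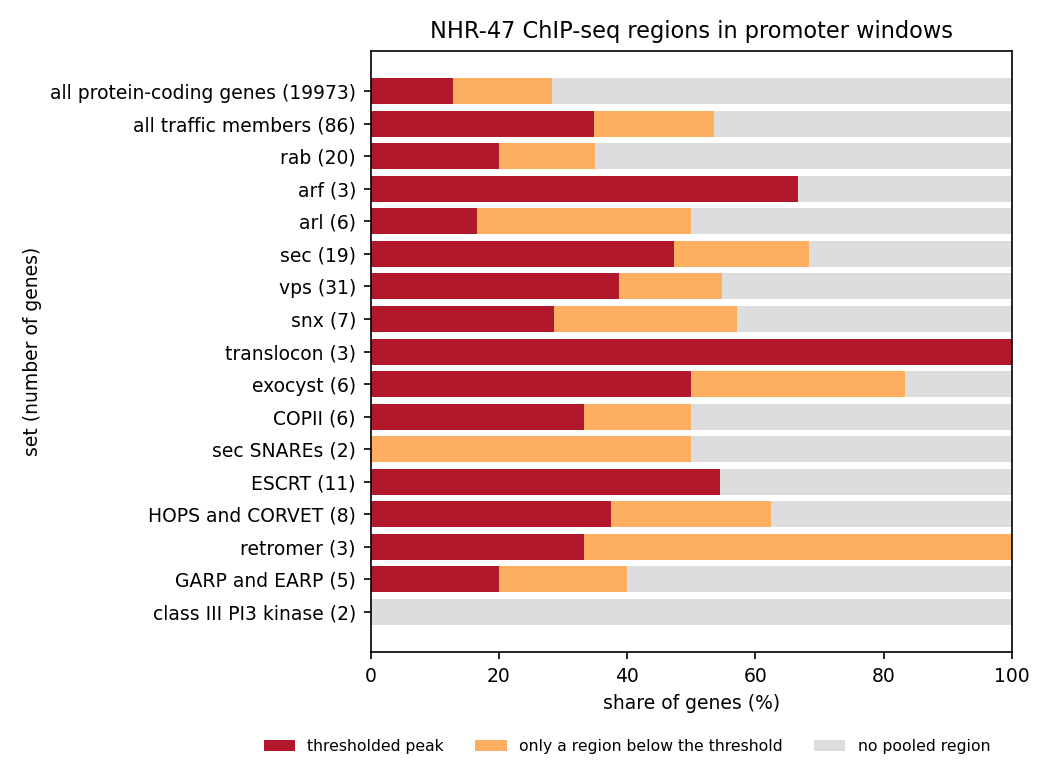
Share of genes (%, x axis) with a thresholded peak (red), only a pooled region below the threshold (orange) or no pooled region (grey) in the promoter window, for all protein-coding genes, the vesicle traffic members and their families and complexes (number of genes in brackets). The red part reaches 34.9% for the members and 12.8% for all genes, and it fills the bar of the translocon.

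The signal at these promoters ranged widely. The deposited signal, a score given by the authors to every peak and not a read count, ran from 77.6 to 2031 over the 30 peaks with a median of 250, and from 77.2 to 4060 with a median of 209 over all 2094 promoter peaks. In rank among the 5357 thresholded peaks, 1 member was in the first 100 and 10 were in the first 500, while 8 ranked outside the first 2678. The like shares of all promoter peaks were not computed. The median rank was 1625 over member peaks and 1977 over all promoter peaks. Each of the 30 genes held a single thresholded summit, and no peak was shared by 2 members. Of the 11 strongest member peaks, 6 held the 6-base sequence GACGCA, on either strand, within 50 bp of the summit. The sequences are shown here for that reason. The count depends on the cut at 11, which ends on a peak with GACGCA, at snx-13. The next in signal, at rab-14, had none. The share among all promoter peaks of like signal was not computed, so this count has no matched background.

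The 8 member peaks with GACGCA are given below 5′ to 3′ on the strand of the named gene, from the ce11 (WBcel235) genome sequence of RefSeq, from 50 bp before to 50 bp after the summit. Capitals mark GACGCA or its reverse complement TGCGTC.
sec-61.G promoter, chrV:10897325-10897425, minus strand: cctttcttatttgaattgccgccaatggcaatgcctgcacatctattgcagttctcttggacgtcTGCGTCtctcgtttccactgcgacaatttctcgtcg
sec-61.B promoter, chrIV:2389106-2389206, minus strand: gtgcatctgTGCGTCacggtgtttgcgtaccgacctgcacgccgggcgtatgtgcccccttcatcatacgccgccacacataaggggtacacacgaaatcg
sec-24.1 promoter, chrIV:11566292-11566392, minus strand: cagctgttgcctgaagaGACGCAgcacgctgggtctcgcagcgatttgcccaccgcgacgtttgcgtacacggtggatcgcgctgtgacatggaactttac
vps-60 promoter, chrV:8606418-8606518, minus strand: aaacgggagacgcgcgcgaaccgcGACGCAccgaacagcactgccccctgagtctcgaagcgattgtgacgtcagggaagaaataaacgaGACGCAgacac
sec-3 promoter, chrX:3099977-3100077, minus strand: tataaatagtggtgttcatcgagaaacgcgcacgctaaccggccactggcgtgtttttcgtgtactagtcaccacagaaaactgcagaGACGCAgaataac
snx-13 promoter, chrIV:17087570-17087670, minus strand: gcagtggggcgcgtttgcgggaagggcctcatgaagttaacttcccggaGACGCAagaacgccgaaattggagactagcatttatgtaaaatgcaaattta
vps-37 promoter, chrV:5592467-5592567, plus strand: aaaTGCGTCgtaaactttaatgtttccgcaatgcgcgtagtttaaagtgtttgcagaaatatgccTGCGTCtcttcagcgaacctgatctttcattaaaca
vps-33.2 promoter, chrII:6601130-6601230, plus strand: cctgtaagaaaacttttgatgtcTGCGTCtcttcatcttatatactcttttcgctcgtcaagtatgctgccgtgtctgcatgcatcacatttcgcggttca

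GACGCA was present in 8 of 30 member peaks (26.7%) and in 368 of 2094 promoter peaks (17.6%). Member peaks with it had a median signal of 689, from 222 to 2031, and the 22 without it a median of 183, from 77.6 to 1028. Over all promoter peaks the medians were 264 with it and 200.5 without. The vps-60 and vps-37 peaks held it at 2 places each. Within 25 bp of the summit the order turned, with GACGCA in 3 of 30 member peaks (10%) and in 11.7% of promoter peaks. Over whole promoter windows, GACGCA was found in 18.6% of members and 16.7% of all protein-coding genes. A match describes the letters only.

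The sequence AGGTCA is one that many nuclear receptors of other animals recognise. It was found in 2 member peaks (6.67%) and 46 of 2094 promoter peaks (2.2%). Within 25 bp of the summit it was in 0 of 30 member peaks, against 1.05% of promoter peaks. Over whole promoter windows the order turned, with AGGTCA in 10.5% of members and 16.8% of all protein-coding genes. The 2 member peaks with AGGTCA are both on the X chromosome. They are shown in the same way, with AGGTCA or its reverse complement TGACCT in capitals.
sec-15 promoter, chrX:8835985-8836085, minus strand: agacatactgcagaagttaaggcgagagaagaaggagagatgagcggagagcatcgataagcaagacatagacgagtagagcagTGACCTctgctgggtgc
snx-1 promoter, chrX:1128642-1128742, plus strand: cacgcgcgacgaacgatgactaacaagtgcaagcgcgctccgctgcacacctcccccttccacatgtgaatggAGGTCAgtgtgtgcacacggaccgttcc

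The 2 highest member signals lay at genes of protein entry into the ER, sec-61.G and sec-61.B. Sec61 is the channel through which new secretory proteins pass into the ER, with alpha, beta and gamma subunits encoded by sec-61.A, sec-61.B and sec-61.G. The peak of sec-61.G lay on V from 10897148 to 10897603 and had a pooled signal of 2031, rank 37 of the thresholded list. Its signal was 832 in replicate 1 and 1208 in replicate 2. Divided by the replicate's median over peaks matched in both, hereafter its relative signal, it was 12.8 ± 0.445 (SD, n = 2), with the summit 232 bp upstream of the 5′ end in intergenic sequence.

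The peak at sec-61.B, on IV from 2388946 to 2389354, had a signal of 526 and 722 in the replicates and a relative signal of 7.85 ± 0.0306 (SD, n = 2). Its summit was 481 bp upstream of sec-61.B but only 289 bp upstream of trap-3, a divergent gene for a translocon-associated protein, so it counts for both. The peak at sec-61.A, on IV from 14824907 to 14825335, was 267 and 387 in the replicates and 4.1 ± 0.134 (SD, n = 2) relative. Its summit lay 126 bp downstream of the 5′ end, within an exon of sec-61.A. The 3 genes thus shared a strong peak but not its place. No pooled region was found at sec-11, named for the signal peptidase that trims proteins as they enter.

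COPII coat genes were split between strong, weak and absent. SEC-24 proteins select cargo in the inner coat, and sec-24.1 had a relative signal of 5.2 ± 0.192 (SD, n = 2), from 338 and 492 in the replicates, 148 bp upstream of its 5′ end, on IV from 11566166 to 11566505. The other gene of the pair, sec-24.2, had only a pooled region of 39.8, against the 833 of sec-24.1. The coat gene sec-23 had a weak peak at 0.501 ± 0.0155 (SD, n = 2), nearer to the divergent gene dcs-1. Of the paired genes named for SEC-16, which organises ER exit sites, sec-16A.2 had a peak of 1.16 ± 0.0461 (SD, n = 2) and sec-16A.1 had no pooled region. The outer coat gene sec-31 and the exchange factor gene sec-12 had no pooled region either, though both had regions in replicate lists.

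The exocyst, which tethers secretory vesicles to the plasma membrane, had 2 strong peaks and 1 near the median. At sec-15 the signal was 346 and 525 in the replicates, or 5.43 ± 0.361 (SD, n = 2) relative to the median peak. The peak lay on X from 8835776 to 8836257, with the summit 320 bp upstream of sec-15, inside an exon of the divergent gene C28G1.2 and within the window of a tRNA gene. At sec-3 it was 259 and 378, or 3.99 ± 0.156 (SD, n = 2), on X from 3099868 to 3100192, 175 bp upstream in intergenic sequence and in no other gene's window. The sec-5 peak was weaker, at 1.05 ± 0.169 (SD, n = 2), and lay 28 bp upstream of the divergent gene pir-1. Of the remaining exocyst genes, sec-8 and sec-6 had pooled regions of 47.5 and 19.6, and sec-10 had no pooled region. The SNARE gene sec-22, whose protein acts in fusion between ER and Golgi, had the highest pooled signal below the threshold, 59.4, while sec-20 had no pooled region. The lowest signal of a thresholded member peak, at arf-5, was 77.6.

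Among endosomal genes, the ESCRT set had the most peaks. VPS-4 is the ATPase that takes the ESCRT-III polymer apart, and its peak was 437 and 591 in the replicates, 6.48 ± 0.0899 (SD, n = 2) relative to the median peak. At the ESCRT-III gene vps-60, on V from 8606258 to 8606655, the signal was 294 and 449 in the replicates, or 4.64 ± 0.324 (SD, n = 2) relative, with the summit 340 bp upstream. The ESCRT-III genes vps-2 (2.29 ± 0.169, n = 2) and vps-24 (0.899 ± 0.236, n = 2) were lower, and no pooled region was found at vps-20 or vps-32.1. The ESCRT-I genes vps-37 and vps-28 stood at 2.21 ± 0.781 and 1.18 ± 0.064 (SD, n = 2 each). The vps-37 peak was 110 in replicate 1 and 254 in replicate 2, the largest SD of the members. None of the ESCRT-II genes vps-22, vps-25 and vps-36 had a pooled region.

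Genes for tethers and fusion factors followed. VPS-51 is a subunit of the GARP and EARP tethers of endosome-derived vesicles. Its peak, 390 and 471 in the replicates and 5.48 ± 0.521 (SD, n = 2) relative, lay 214 bp upstream of vps-51 and 204 bp upstream of lin-35, the divergent retinoblastoma gene. Of the other GARP and EARP genes, vps-52 had a pooled region of 46.5 and vps-50, vps-53 and vps-54 had no pooled region. In HOPS and CORVET, the related genes vps-33.1 and vps-33.2, both for SNARE-binding proteins, had like values of 1.22 ± 0.139 and 1.4 ± 0.18 (SD, n = 2 each), and vps-39 had 1.21 ± 0.282 (n = 2). The vps-33.2 summit lay 36 bp upstream of its 5′ end, in an intron of the overlapping gene epg-5. The core genes vps-11 and vps-18 and the HOPS gene vps-41 had no pooled region, and vps-16 and vps-8 had regions of 16.4 and 32.7. In retromer, vps-26 had a weak peak (0.519 ± 0.0138, n = 2), while vps-35 and vps-29 had regions of 57.0 and 41.4. The kinase genes vps-34 and vps-15, which make the endosomal lipid PI3P, had no pooled region.

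Sorting nexin genes had a peak at snx-13, on IV from 17087392 to 17087772, of 238 and 291 in the replicates, or 3.37 ± 0.293 (SD, n = 2), with the summit 182 bp upstream. A weaker one lay at snx-1, 1.11 ± 0.0308 (SD, n = 2), whose protein acts with retromer. Weak regions of about 22 lay at snx-27 and snx-17, and no pooled region lay at snx-3, snx-6 or snx-14. The lipid transfer gene vps-13 had no pooled region. The vps-45 peak, at a gene for a SNARE-binding protein of endosomes, was 72.4 in replicate 1 and 46.3 in replicate 2, or 0.793 ± 0.412 (SD, n = 2). It was the single member peak whose relative signal differed by more than 2-fold between replicates.

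Rab genes had a peak in the window in 4 of 20 cases (20%), against 12.8% of all genes. RAB-18 is known from the ER and lipid droplets, and its peak on III from 1080587 to 1080917 was 405 and 567 in the replicates, or 6.1 ± 0.0603 (SD, n = 2). The summit was 14 bp downstream of the 5′ end in an exon and also lay in the window of the divergent kinetochore gene kbp-4. The next, rab-14, on X from 15606848 to 15607342, was 151 and 249 in the replicates, or 2.49 ± 0.309 (SD, n = 2), 418 bp upstream and in no other gene's window. The peaks of rab-39 (0.662 ± 0.239) and rab-7 (0.55 ± 0.0794, n = 2 each), the late endosome Rab, were below the median peak. Weak regions lay at rab-10, rab-1 and rab-19 with signals of 35.4, 32.9 and 14.7. The genes for the early endosome Rab, rab-5, the recycling Rab, rab-11.1, the synaptic vesicle Rab, rab-3, and the Golgi and exocytic Rabs rab-6.1, rab-6.2 and rab-8 had no pooled region in the window, nor had rab-11.2, rab-21, rab-28, rab-30, rab-33, rab-35 and rab-37.

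Of the Arf genes, arf-6, which acts in endocytic recycling, had a relative signal of 1.74 ± 0.0851 (SD, n = 2), and its summit was nearer to the divergent gene Y116A8C.9. The arf-5 peak was near the foot of the list, 21.5 in replicate 1 and 54.3 in replicate 2, and arf-1 had no pooled region in the window. The Arl gene with a peak was arl-13, named for a GTPase of cilia (0.548 ± 0.063, n = 2), arl-1 and arl-3 had regions of 21.3 and 14.0, and arl-5, arl-6 and arl-8 had no pooled region. Regions at arl-8 were listed in both replicates, at 15.01 and 8.75.

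**Figure D2:**
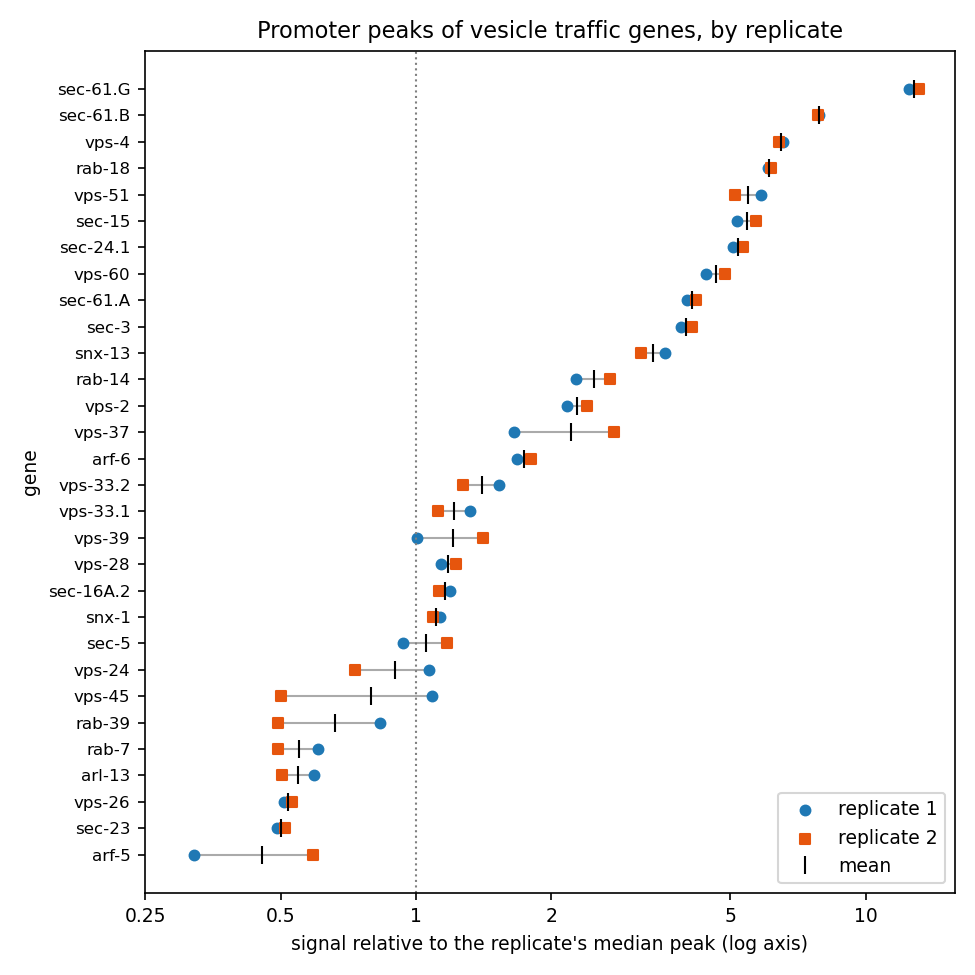
Signal at the 30 member promoter peaks (y axis, ordered by mean) divided by the replicate's median peak (x axis, log scale), with replicate 1 as circles, replicate 2 as squares and the mean of the 2 as a tick. The 11 strongest genes lie close together in both replicates, and the widest gaps are at vps-45, arf-5, rab-39 and vps-37.

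The replicates were close at most members, as at thresholded peaks in general. Peaks entered the thresholded list through an irreproducible discovery rate threshold, so agreement between replicates may be partly built in. All 30 peaks were matched in both replicate lists, as were 5312 of all 5357 thresholded peaks. After scaling, 29 of the 30 lay within 2-fold, against 94.9% of those 5312. The median size of the log2 ratio between replicates was 0.15 over the members and 0.20 over all promoter peaks. The summits of the replicates were a median of 12.5 bp apart over the members, and 71 bp at most.

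Summits lay mainly upstream. Of the 30, 26 were upstream of the 5′ end and 4 downstream, with a median of 184 bp upstream against 178 bp over all genes with a peak. The 4 downstream summits, at rab-18, vps-26, sec-61.A and rab-7, were in exons of those genes. In all, 24 summits were intergenic, 5 exonic and 1 intronic, a split that was not computed over all promoter peaks. A summit in the window of another protein-coding gene was seen at 11 of the 30 members, and in each case that gene lay on the opposite strand. Over all genes with a peak, 40.8% shared it with at least 1 other protein-coding gene, on either strand. The member was the gene with the nearest 5′ end in 23 of 30 cases, the exceptions being sec-61.B, vps-51, sec-15, vps-2, arf-6, sec-5 and sec-23.

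**Figure D3:**
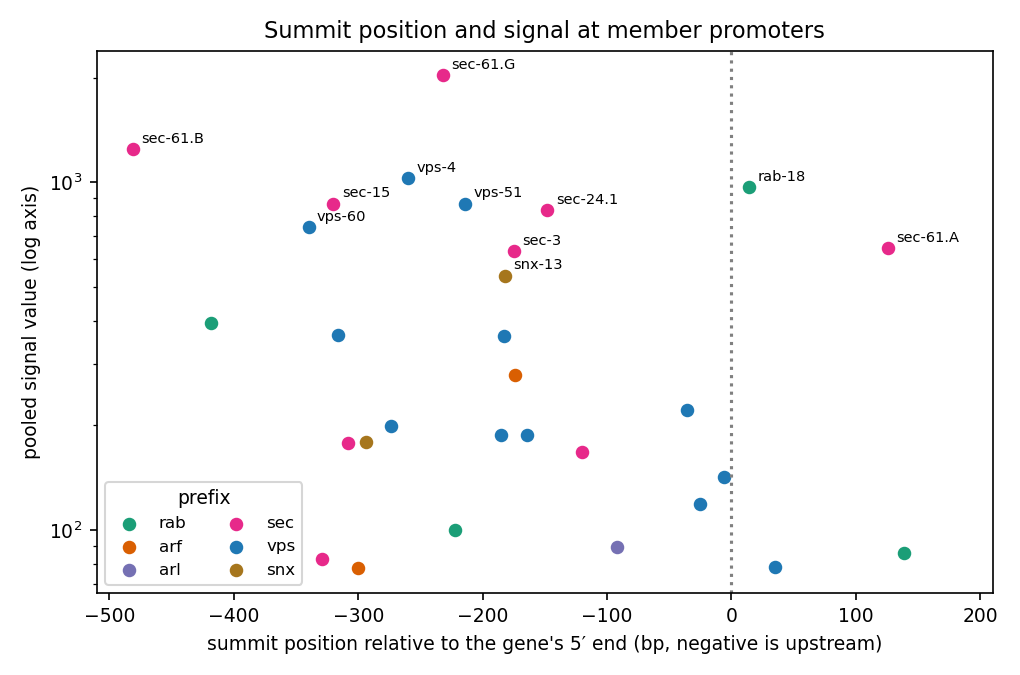
Position of each member's summit relative to the 5′ end of the gene (x axis, bp, negative is upstream) against its pooled signal value (y axis, log scale), coloured by symbol prefix. Of 30 summits, 26 lie upstream, and the strongest, at sec-61.G, is 232 bp upstream. The window reaches 500 bp upstream and 200 bp downstream.

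Peak frequency varied with the gene next upstream. Genes overlapping a gene's 5′ end were passed over, so vps-33.2 was classed by dnj-8, 3136 bp away, and not by epg-5. Where the nearest upstream protein-coding gene was on the opposite strand within 500 bp, 8 of 13 members had a peak (61.5%), against 39.8% of all genes in that arrangement. With an opposite-strand gene farther away the share was 39.4% (13 of 33) against 13.3%. With a same-strand gene within 500 bp it was 20% (5 of 25) against 9.33%, and with one farther away 26.7% (4 of 15) against 7.36%. The members' share was above that of all genes in each of the 4 arrangements. This split was chosen after seeing the data.

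**Figure D4:**
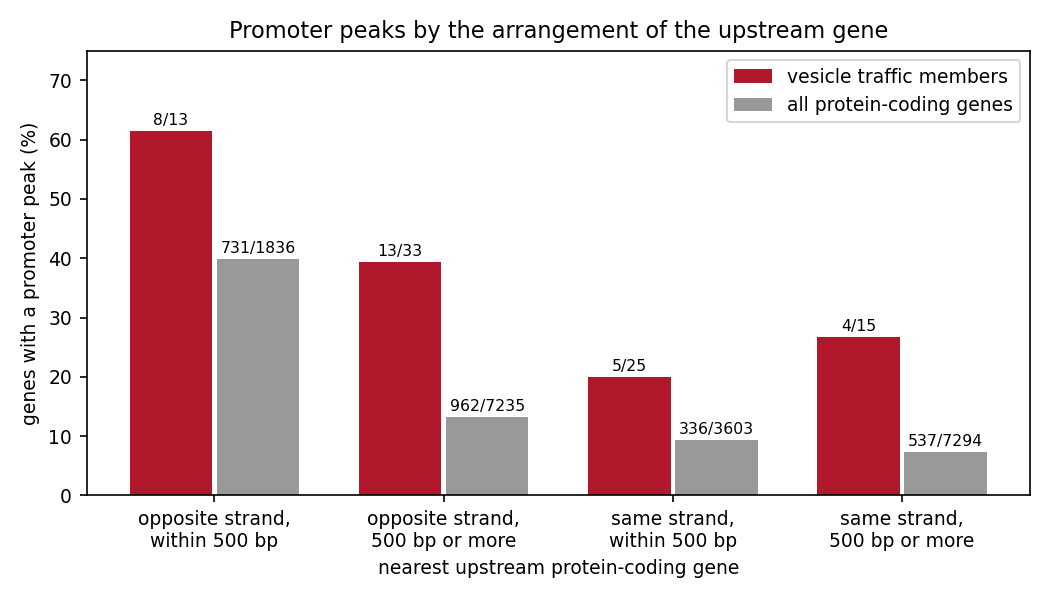
Share of genes with a promoter peak (y axis, %) by the strand and distance of the nearest upstream protein-coding gene (x axis), overlapping genes passed over. Members are red and all protein-coding genes grey, with counts over the bars. The share is highest where the neighbour is on the opposite strand within 500 bp, 61.5% of members and 39.8% of all genes.

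In C. elegans many neighbouring genes on one strand are transcribed together as operons from a promoter ahead of the first gene. Operons are not marked in the annotation used, so only distance was examined. Of the 20 members without a peak that followed a same-strand gene within 500 bp, 9 (45%) followed a gene that had a promoter peak itself, against 20.5% of all such genes. The gaps between these 9 and the gene ahead were 83 to 246 bp. For sec-6 the peak lay at bmy-1, 1145 bp upstream of sec-6, with a relative signal of 3.84 ± 0.539 (SD, n = 2). For sec-11 it lay at rpb-7, a gene named for an RNA polymerase subunit (3.76 ± 0.157, n = 2). For rab-33 it lay at taf-11.3 (2.15 ± 0.0993, n = 2), and for vps-16 at txdc-9 (2.01 ± 0.0356, n = 2). The others were arl-5, vps-41, vps-29, vps-8 and rab-21, with relative signals from 0.506 to 1.52 at the gene ahead. The summits at rpb-7, bmy-1, taf-11.3 and txdc-9 each also lay in the window of another protein-coding gene. This comparison was chosen after seeing the data, and whether these pairs share transcripts was not tested.

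Several members lay just outside the window of a strong peak. The nearest summit was 630 bp upstream of vps-32.1 with a signal of 1038, in the window of the divergent gene icd-1. At vps-22 it was 621 bp upstream with a signal of 840. At rab-5 it was 723 bp upstream (signal 403), and at rab-11.1 668 bp upstream (signal 323), in the window of the ribosomal protein gene rpl-7. Windows of 1000 bp before and 500 bp after the 5′ end added these 4 genes, rab-1 and rab-19, for 36 members with a peak, against 16.4% of all genes.

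A replicate region lay in the window of 53 of the 86 members in replicate 1, 46 in replicate 2 and 41 in both, with no overlap required. Over all 19973 protein-coding genes these counts were 5959, 5715 and 4478. A region in 1 replicate list alone was thus found at 17 members. Of these, 7 also had a pooled region below the threshold and 10 no pooled region. Named here are the 5 of these 10 whose region was among the 5357 strongest of its replicate. The other 5, at vps-36, sec-16A.1, sec-10, rab-28 and rab-11.1, had signals from 9.27 to 16.1. Regions in both replicate lists but not in the pooled list were found at arl-8, rab-6.2 and sec-31. At vps-25 replicate 2 held a region with a signal of 202, rank 1069 of its list and 4 bp downstream of the 5′ end, and neither replicate 1 nor the pooled list held one. In replicate 1 alone, sec-12 had a region of 127, snx-3 of 81.4, vps-20 of 65.0 and vps-50 of 51.5. Among the 5357 strongest regions of each replicate, 143 (2.67%) of replicate 1 and 27 (0.504%) of replicate 2 overlapped no region of the pooled list or of the other replicate. Such regions lay in the window of 4 members in replicate 1 (4.65%), against 0.526% of all protein-coding genes. In replicate 2 they lay in the window of 1 member (1.16%), against 0.0901%. Of these members, vps-25, sec-12, snx-3 and vps-20 are on chromosome I and vps-50 is on III. Why a strong region of 1 replicate is missing from the pooled list was not tested.

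Members whose symbols differ only after the last dot could be set side by side. There were 6 such sets with 13 genes, of which 7 had a peak, beside 12.8% of all protein-coding genes. Both vps-33 genes and all 3 sec-61 genes had one, of the sec-24 and sec-16A pairs 1 gene each had one, and neither rab-6 nor rab-11 gene did. The sec-61 genes encode different subunits, so that set is no family of copies.

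Other genes of the same pathways, 137 genes outside the 6 symbol families, had a promoter peak in 58 cases (42.3%), against the 12.8% of all genes. This list was also made with earlier results of the data known. The share was 13 of 21 for secretion into the ER and cargo receptors, 5 of 7 for the COPI coat, 11 of 19 for clathrin, adaptors and dynamin, and 7 of 20 for tethers. It was 9 of 29 for endosome and Rab regulators, 7 of 26 for SNAREs and fusion factors, and 3 of 7 for Arf regulators. It was 2 of 2 for the COPII genes sar-1 and tfg-1, and 1 of 6 for ESCRT partners. The tfg-1 peak, with a signal of 99.4, had no overlapping region in the replicate 2 list. The strongest of the 137 genes was epn-1, the epsin gene of endocytosis, at 9.55 ± 0.412 (SD, n = 2). Its summit lay 497 bp upstream, close to the edge of the window. Next came trap-3, through the peak it shares with sec-61.B. The adaptor gene apb-1 stood at 7.54 ± 0.265, the Golgi syntaxin gene syx-5 at 7.24 ± 0.877 and ccz-1, a gene of the endosomal Rab conversion complex, at 4.86 ± 0.0565 (SD, n = 2 each). The syx-5 summit also lay in the window of F55A11.1, and the ccz-1 summit in that of tag-65.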

How the data were processed

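ChIP-seq of GFP-tagged NHR-47 was done in 2 biological replicates. Per the submitters' file index, the authors deposited for each replicate and for both pooled a relaxed list of 30000 regions of peaks and background, the input to IDR (irreproducible discovery rate) analysis, and 1 list of peaks passing the optimal IDR threshold, on ce10 and ce11. The ce11 lists were used. The deposited signal value (column 7) and −log10 q value (column 9) are the authors', and no scaling between libraries is recorded. The summit offset (column 10) is in bp from the region's start. For the aligner, the caller and their versions, and for the cutoff, the entry is: not given in the sources used here. Read counts were not analysed, so depth is unknown, and weak regions may depend on it. All regions lay within the chromosome lengths of WBcel235.

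Genes were read from Ensembl release 115 with Python 3.11.15 and pandas 2.3.3, and sequences from the RefSeq genome of the same build. A replicate's value at a peak is the signal of its overlapping region (at least 1 bp) with the nearest summit, divided by that replicate's median over the 5312 peaks matched in both replicates, 66.8 in replicate 1 and 92.2 in replicate 2. No test was run across genes, since there is 1 group. Replicates are described by mean and SD. The window search recovered 1000 of 1000 summits planted in simulated data over 19973 genes. There were 0 unused per-sample columns. Of the pathway list, 2 symbols (cogc-7 and emo-1) were not found. Protein sequences were not used here.

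The members, gene lists and motifs were chosen with earlier results of these data known. Named were all members with a thresholded peak (replicate signals for the 12 strongest), the members with the highest signals below the threshold, all sets sharing a symbol base, and the 6 pathway genes of highest signal, of which 1 is not reported here. Members near a peak of another gene or with a region in 1 replicate alone were named after their values were seen. The arrangement, upstream-gene and single-replicate descriptions were likewise added later. Alternatives changed the window, the gene start, the assignment of summits, the threshold, the replicate and the scaling.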

Additional observations from a re-analysis of the deposited data

How the results depend on the processing

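The count of members with a promoter peak was lowest, at 21, in windows of 300 bp before and 100 bp after the 5′ end. It was highest, at 36, in windows of 1000 and 500 bp. These were 24.4% and 41.9% of members, against 9.77% and 16.4% of all genes. The count was 23 when a summit counted for its closest gene start alone (26.7%, against 10.2% of all genes). In the stronger 2678 peaks it was 22 (25.6% against 8.46%). It was 33 with any transcript start (38.4% against 13.9%) and 34 with any base of the region (39.5% against 14.3%). With 1 replicate's 5357 strongest regions it was 27 without replicate 1 (31.4% against 12.9%). Without replicate 2 it was 32 (37.2% against 13.1%). These shared 26 and 27 of the 30 genes. In 12 of the 30 genes the peak was found in all 8 alternatives, and sec-23 lost it in 4. The genes in sets with a shared symbol base had 4 peaks in the narrow window, against 7, since sec-61.A, sec-61.B and sec-16A.2 lay outside it. The median relative signal of member peaks was 7.25 when divided by the median of all regions, which include weak ones, against 1.57. GACGCA was in 3 member peaks within 25 bp of the summit (10%, against 11.7% of all promoter peaks), and in 8 within both 50 and 100 bp (26.7%, against 17.6% and 21.9%). Without replicate 1 the rab count was 2, against 4, and the arl count 0, against 1. Without replicate 2 the arf count was 1, against 2, the retromer count was 0, against 1, and the GARP and EARP count 2, against 1. The count of other traffic genes with a peak stayed between 41 in the stronger 2678 peaks and 68 in windows of 1000 and 500 bp. The shares of all genes there were 8.46% and 16.4%. Read depth, unknown here, limits what can be said of weak regions.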

Other observations

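The share of members with a promoter peak varied over chromosomes. It was 6 of 12 on X (50%, against 12.2% of all genes there), 5 of 9 on V (55.6% against 9.09%), 7 of 14 on IV (50% against 12.3%) and 6 of 17 on II (35.3% against 11.4%). On III, where 18.5% of all genes had a peak, 2 of 16 members did (12.5%), rab-18 and vps-33.1. On I the share was 4 of 18 (22.2% against 17.3%), with vps-4, vps-51, vps-28 and arl-13. These are counts with no test. Of the III members, 12 had no pooled region (75%, against 63.7% of all genes on III). Among them were arf-1, rab-6.1, rab-30, sec-20, vps-22 and vps-53.

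The other sequences searched, on either strand within 50 bp of the summit, were found in 0 to 5 member peaks each. The E-box CACGTG lay at arf-5 and sec-23, 2 of 30 peaks (6.67%, against 3.87% of promoter peaks), and TGACGT at vps-4 and vps-60 (6.67% against 5.87%). GAGAGA was found in 5 (16.7% against 21.8%), at arl-13, sec-15, sec-16A.2, sec-61.G and vps-45. TGATAA and GTAAACA were in 0 of 30, against 3.92% and 2.44% of all promoter peaks. The G and C content around member summits had a median of 47.5%, against 45.5% for all promoter peaks, and ran from 16.8% at vps-2 to 60.4% at snx-1, vps-45 and arl-13.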
